A study of Bos taurus with 2 samples.

Results

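Chromosome 7 of cattle carries CAST, the gene for calpastatin, the natural inhibitor of the calpain proteases that loosen muscle fibres after slaughter, and variants of this gene are a classic subject of beef tenderness research. The H3K4me3 peaks of this chromosome in longissimus dorsi (LD), the loin muscle, are described here. They were chosen only by their chromosome name in the deposited peak lists, which gave 754 peaks in the tender group of 12930 in all and 688 in the tough group of 11535 in all. Tender and tough peaks that shared at least 1 bp were merged into 813 regions, and the other 28 autosomes, with 13099 merged regions, served as the comparison.

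H3K4me3 is trimethylated lysine 4 on the tail of histone H3. It is placed by SET1 and MLL complexes at the promoters of genes that are transcribed or poised, so that a map of the mark traces where active gene starts lie. In muscle it covers the starts of housekeeping genes and of contractile and metabolic genes. Where genes crowd together the marked regions crowd too, and stretches with few genes stay bare. Cattle autosomes have their centromere at one end, and their sequence is numbered from that end.

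The mark was mapped by ChIP-Seq in purebred Angus steers slaughtered at about 12 months of age. Of 19 steers, 4 with the lowest Warner-Bratzler shear force, a measure of how hard cooked meat resists a blade (6.77 ± 0.56 kg as the labels give it, the kind of error not stated), formed the tender group, and 5 with the highest (19.93 ± 0.39 kg) formed the tough group. Chromatin of the steers of a group was mixed in equal parts into 1 library per group, so there are no replicates and no difference between the groups has a check against the spread between animals. The chromatin came from whole muscle, in which fewer nuclei of a cell type and less of the mark per nucleus cannot be told apart, and marker genes of muscle could not be checked because genes could not be placed on the peak lists.

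Each peak carries a SICER score, which adds up, over its windows of 200 bp, how improbable the read count of each window is under a Poisson background, as a negative natural log. Scores of peaks that were a single window long gave 0.157 reads per window on average for the tender library and 0.182 for the tough one, a depth ratio of 1.17 (tough over tender) if both were scored with the same genome size. From the scores the reads of every peak with a score up to 180 followed, on chromosome 7 for 691 of 754 in the tender list and 662 of 688 in the tough list. The median peak had 22 reads for tender (quartiles 14 and 34) and 23 for tough (quartiles 17 and 34), with as few as 9 and 10 reads in the weakest. At such depths a peak missing from a list is not shown to lack the mark.

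Chromosome 7 was rich in the mark for its length. Its 813 merged regions, up to the last peak end at 112.3 Mb, gave 7.24 regions per Mb, the fifth highest of the 29 autosomes, behind chromosomes 19, 25, 18 and 23. The others had a median of 5.56 and ranged from 2.66 on chromosome 12 to 15.3 on chromosome 19. Its share of all autosomal regions was 1.30 times its share of autosomal length (95% exact binomial interval 1.22 to 1.39, which covers counting error only and treats neighbouring regions as independent). Chromosome 8, nearly as long at 113.4 Mb, had 450 regions, and chromosome 11, at 107.3 Mb, had 697. Regions covered 21.7 kb per Mb of chromosome 7, against a median of 15.9 kb on the other autosomes. Regions of 1 library are no replicates, so ranks among autosomes are given as a description without a test.

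The regions were spread unevenly along the chromosome. Of the 813 regions, 80.4% lay before its midpoint, the highest value of the 29 autosomes. Chromosome 20 came next with 65%, the median of the others was 39.4%, and chromosome 29 was lowest with 15.1%. Per Mb, 11.6 regions lay before the midpoint of chromosome 7 and 2.83 after it. A boundary at 65 Mb, placed after the map had been seen, separated 712 regions (11 per Mb) from 101 (2.13 per Mb).

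**Figure D1:**
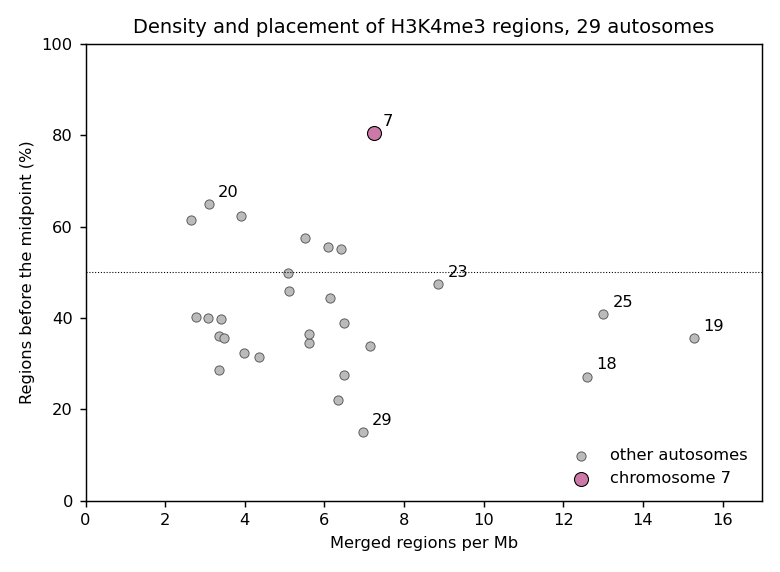
Each point is an autosome, with its merged regions per Mb on the horizontal axis and the percentage of its regions before the midpoint on the vertical axis. Chromosome 7 stands highest, at 80.4% with 7.24 regions per Mb, while the denser chromosomes 18, 19 and 25 lie below the dotted line at 50%.

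In bins of 1 Mb, the 113 bins of chromosome 7 held 3 regions at the median and 7.19 on average. The fullest bin, from 45 to 46 Mb, held 43 regions, of which 32 were shared, 7 tender only and 4 tough only. For the whole chromosome 16.9% of regions were tender only and 8.24% tough only. Counted as peaks of each list, a different base, 18.2% of tender and 9.74% of tough peaks of the chromosome had no overlap, against 21.9% and 13.9% over the whole lists. The next were the bins from 16 to 17 Mb, 21 to 22 Mb and 5 to 6 Mb with 34 regions each and the bin from 4 to 5 Mb with 33. In that last bin 27 regions were shared, and they covered 152 kb, more than the 141 kb of the fullest bin. The 11 bins with 20 or more regions, all before the midpoint, held 40.7% of the regions of the chromosome, while 23 bins (20.4%) held none. In the 10% of bins with the most regions lay a median of 32.9% of the regions of the other autosomes, up to 50.6% on chromosome 29.

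Bins with 10 or more regions, a limit set after the counts had been seen, joined into 9 blocks. The largest ran from 15 to 24 Mb with 196 regions, of which 35 (17.9%) were tender only and 15 (7.65%) tough only, near the values of the whole chromosome. A block from 1 to 7 Mb held 121 regions, and the block with the closest packing, from 12 to 14 Mb, held 57 regions in 2 bins. Further along came blocks from 39 to 42 Mb (45 regions), 44 to 46 Mb (54), 51 to 55 Mb (72) and 62 to 65 Mb (45), with single bins from 8 to 9 Mb (11) and 47 to 48 Mb (19). No block lay beyond 65 Mb. The block from 51 to 55 Mb had 12 tender only (16.7%) and 9 tough only (12.5%), and the block from 39 to 42 Mb had 3 (6.67%) and 0, small numbers that were not tested against the rest.

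**Figure D2:**
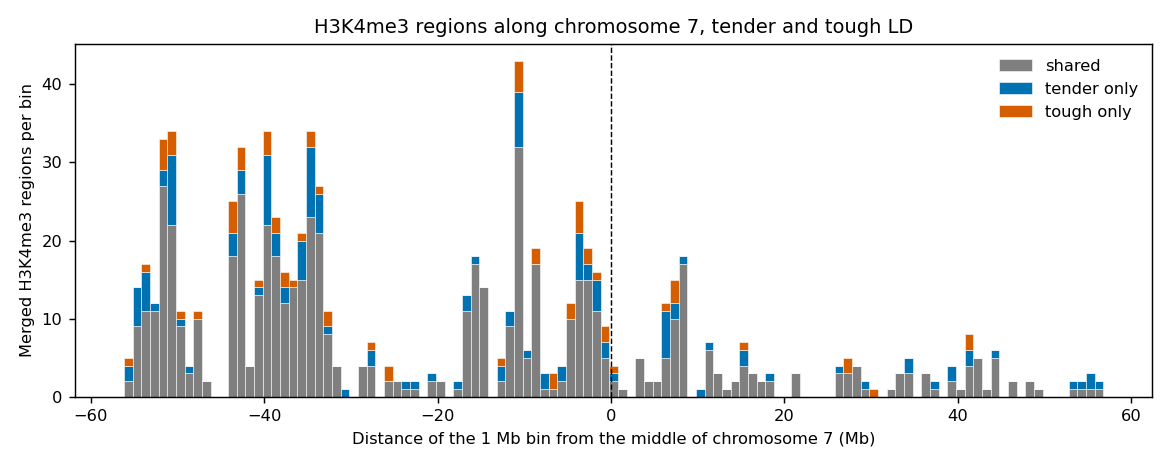
Stacked bars give the merged regions in each 1 Mb bin of chromosome 7 by distance from the middle of the chromosome in Mb, with negative values on the centromere side; grey is shared, blue tender only and orange tough only. Crowded bins stand left of the middle and up to about 9 Mb right of it, and the fullest bin reaches 43 regions.

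Between the crowded blocks lay long bare stretches. In the 812 intervals between neighbouring regions the median gap was 31.0 kb (quartiles 10.4 and 78.9 kb), against a median of 58.8 kb over the other autosomes. Even so, 25 gaps reached 1 Mb or more and took up 44.0% of the length of the chromosome, against a median of 40.1% on the others. The longest, of 5.47 Mb, ran from 77323200 to 82792201, followed by gaps from 105045600 to 109243201 (4.20 Mb), 9034400 to 12190601 (3.16 Mb), 74115400 to 77248601 (3.13 Mb) and 33189600 to 35762601 (2.57 Mb). The third of these cuts through the crowded end of the chromosome, between the block that ends at 9 Mb and the one that starts at 12 Mb. Gaps of 1 Mb or more lay on both sides of 65 Mb but were denser beyond it. Of them, 12 ended in the 65 Mb before it and 13 in the shorter 47.3 Mb beyond it.

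At the other extreme, 200 of the 812 gaps (24.6%) were no longer than 10 kb, against a median of 16.2% on the other autosomes and 32% on chromosome 25, the highest. Regions linked by such gaps formed 43 runs of 3 or more. The longest run, from 13655801 to 13688600, held 7 regions within 32800 bp, 6 of them shared and 1 tough only, and the mark covered 74.4% of it. A run from 45783201 to 45817200 held 6 regions, 4 of them shared, and one from 52464801 to 52503000 held 6 regions, of which 4 were shared and 2 tender only. In the last of these the tender library had 7 peaks and the tough library 4.

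Most marked regions were called in both groups. Of the 813 regions, 609 (74.9%) were shared, 137 (16.9%) were tender only and 67 (8.24%) were tough only. The shared percentage was the second highest of the 29 autosomes, after 75.1% on chromosome 3, with a median of 68.4% on the others. Counted as peaks, 137 of 754 tender peaks, or 18.2% (95% Wilson interval 15.6 to 21.1%, counting error only), had no tough overlap, against 21.9% over the whole tender list. In the tough group 67 of 688 peaks, or 9.74% (7.74 to 12.2%), had no tender overlap, against 13.9% over the whole tough list. The tough percentage was the lowest of the autosomes, just under 10.2% on chromosome 9, and the tender percentage was lower only on chromosomes 3 and 18. The gap between the groups shrank when the same number of highest-scoring peaks was taken from each list. On chromosome 7 this left 13.4% of tender and 12.5% of tough peaks without a partner. The percentages over the whole lists were not computed under this setting, so these values have no genome-wide comparison.

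**Figure D3:**
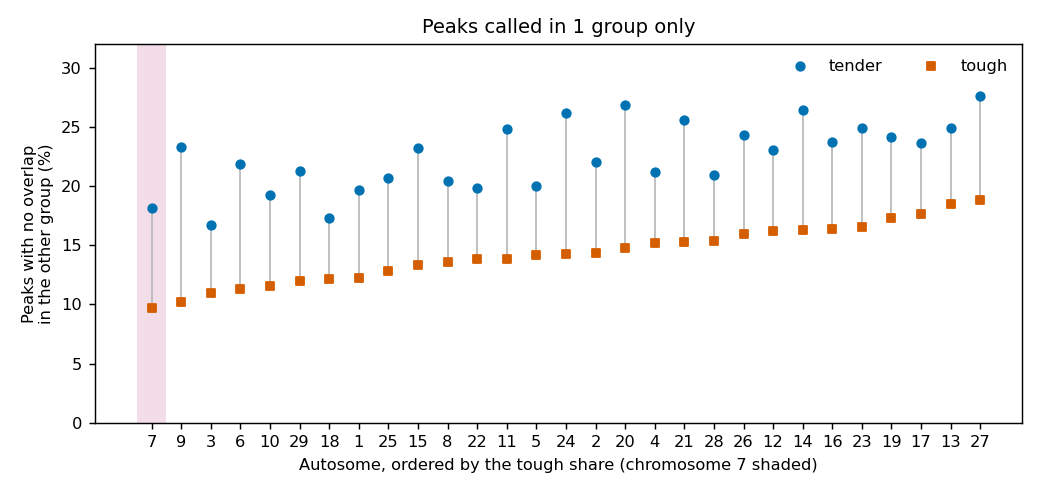
For each autosome, ordered by the tough value, the blue circle gives the percentage of tender peaks without a tough overlap and the orange square the percentage of tough peaks without a tender overlap. Chromosome 7, shaded, is at the left end with 9.74% of tough and 18.2% of tender peaks.

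Peaks called in 1 group alone were weak ones. On chromosome 7 the unmatched tender peaks had a median score of 30.2 and a median of 13 reads, against 79.0 and 26 reads for those with a partner. The unmatched tough peaks had 30.7 and 14 reads, against 66.4 and 25 reads. In the lowest of 4 equal score classes of each whole list, 56.8% of the 169 tender peaks of chromosome 7 were unmatched against 60.8% on the other autosomes, and 34.0% of the 147 tough peaks against 43.1%. The values of the other autosomes were also weighted by the numbers of chromosome 7 peaks in the 4 classes. They were then 19.9% for tender and 12.9% for tough, beside 18.2% and 9.74% on chromosome 7. The lower unmatched percentages of the chromosome thus go partly with its higher scores.

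The strongest tender peak without a tough overlap, from 17343601 to 17344800, had a score of 65.1 and 23 reads. It was followed by peaks from 7939001 to 7942000 (64.8, 27 reads), 43977001 to 43979000 (63.2, 23 reads), 771401 to 772800 (61.5, 23 reads) and 18958801 to 18960000 (59.7, 20 reads). All of these lay before the midpoint, and none was wider than 3000 bp. Among tough peaks the strongest ran from 47706201 to 47709800, with a score of 82.1 and 34 reads. Behind it came peaks from 16279201 to 16281600 (57.5, 23 reads), 52560401 to 52566400 (48.7, 24 reads), 4600201 to 4604600 (47.2, 23 reads) and 28160201 to 28162200 (45.4, 18 reads). The third of these was 6000 bp wide and held about as many reads as the second, of 2400 bp.

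On chromosome 7, 7 regions stood 500 kb or more from both neighbours, a number given without one for the other autosomes. Of these, 4 were shared, 2 tender only and 1 tough only. Over all regions of the chromosome 74.9% were shared, 16.9% tender only and 8.24% tough only, and 7 regions are too few to set against these values. The loneliest, from 69584401 to 69587600, was 1282400 bp from its nearer neighbour and was called in both groups, with a tender score of 65.9 and a tough score of 109.6. The median distance to the nearest region was 13400 bp for tender only, 14800 bp for tough only and 14400 bp for shared regions, values that lie close together.

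Tough peaks on chromosome 7 were wider than tender peaks, as they were on the other autosomes. The median tender peak was 2000 bp wide (quartiles 1600 and 2800 bp, range 200 to 10000 bp). The median tough peak was 2400 bp wide (quartiles 1800 and 3400 bp, range 600 to 9400 bp). In 365 (61.8%) of 591 one-to-one pairs, meaning a tender and a tough peak that overlapped each other and no further peak, the wider peak was the tough one. The tender peak was the wider in 171 (28.9%), while 55 pairs were equal. On the other autosomes the tough peak was the wider in 59.6%. The tough peak reached past the tender one at both ends in 168 pairs (28.4%, against 24.9% elsewhere), and the tender peak reached past the tough one in 44 (7.45%, against 8.91%). In the 273 pairs whose scaled reads were within 0.8 to 1.25 of each other, the tough peak was still the wider in 60.8%. The deeper tough library moves with this difference, and its part in it was not tested.

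Pairs with a 2-fold or larger difference in width numbered 78 with the wider peak in tough (13.2%, against 12.9% over all pairs of the lists) and 23 with the wider peak in tender (3.89%, against 3.26%). Both are near the genome-wide values. The widest tough excess was at 63812601 to 63818000, where a tough peak of 5400 bp with 35 reads met a tender peak of 600 bp with 15 reads. A tough peak of 6200 bp from 12426601 to 12432800 (28 reads) met a tender peak of 800 bp (18 reads), and one of 1400 bp from 48471401 to 48472800 (13 reads) met a tender peak a single window wide (9 reads). In the other direction, a tender peak of 9400 bp from 4094801 to 4104200 (59 reads) met a tough peak of 2000 bp (13 reads). A tender peak of 3000 bp from 47243201 to 47246200 (39 reads) met one of 800 bp (24 reads), and one of 4600 bp from 63708801 to 63713400 (28 reads) met one of 1600 bp (15 reads).

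**Figure D4:**
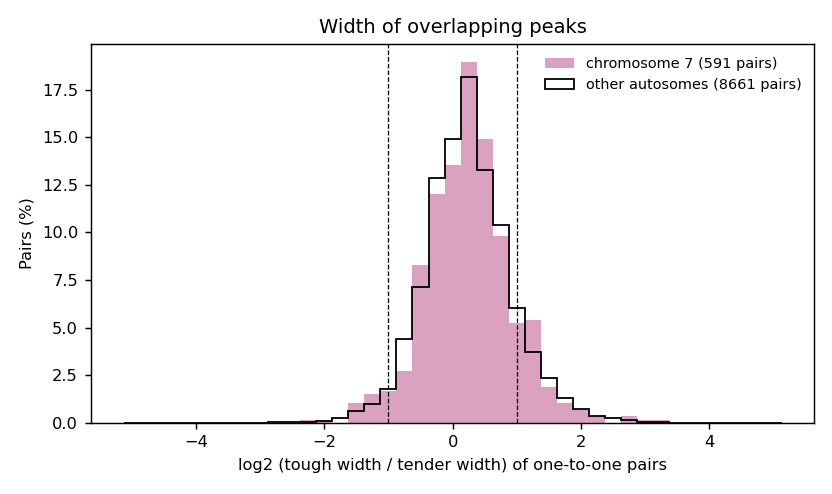
The histogram gives the percentage of one-to-one pairs by log2 of tough over tender width, filled for the 591 pairs of chromosome 7 and outlined for the 8661 pairs of the other autosomes, with dashed lines at a 2-fold difference. The 2 shapes nearly coincide and both lean toward wider tough peaks.

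Peaks of 5 kb or more numbered 29 in the tender group (3.85%, against 2.89% on the other autosomes) and 56 in the tough group (8.14%, against 6.85%). Of these, 11 and 22 lay in the first 15 Mb, and only 1 and 2 beyond 65 Mb. Of the 29 wide tender peaks 14 met a wide tough peak, and every one met some tough peak. Of the 56 wide tough peaks 4 had no tender overlap. Among peaks of any width on chromosome 7, 18.2% of tender and 9.74% of tough ones had no overlap, and over the whole lists 21.9% and 13.9%. Overlaps of wide peaks were counted on chromosome 7 alone, so these counts have no genome-wide value beside them. The widest merged region, from 4529001 to 4539200, was made of a tender peak and 2 tough peaks. Next were regions of 10000 bp from 12331601 to 12341600 and from 20562801 to 20572800, one of 9800 bp from 5102801 to 5112600 and one of 9400 bp from 4094801 to 4104200. The last is the span of the tender peak named above.

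On chromosome 7 tough peaks were wider where regions were crowded, and tender peaks were so to a smaller degree. In bins with 10 or more regions the median tough peak of chromosome 7 was 2600 bp and 9.76% were 5 kb or wider, whereas in emptier bins the median was 2000 bp and 2.58% were that wide. The tender medians were 2000 and 1800 bp, and 3.99% and 3.39% of tender peaks were 5 kb or wider. In the emptier bins of chromosome 7 these wide peaks were only 6 tender and 4 tough ones. The other autosomes showed the same order in the tough group, with 2600 and 2200 bp and with 8.69% and 4.46% at 5 kb or wider. Their tender peaks showed it too, with medians of 2000 and 1800 bp and with 3.75% and 1.82% at 5 kb or wider. The tender medians were thus the same on chromosome 7 and on the other autosomes, and the contrast lay in the percentage at 5 kb or wider. In the emptier bins of chromosome 7 that percentage rests on 6 of 177 tender peaks. The other autosomes were pooled for these values, and no single autosome was computed. Whether the small tender difference is particular to chromosome 7 was therefore not tested. The tough peak was the wider of a pair in 64.5% of 456 pairs in crowded bins of chromosome 7 (95% Wilson interval 59.98 to 68.7%) and in 52.6% of 135 pairs in emptier ones (44.2 to 60.8%). On the other autosomes these were 60.2% and 58.8%. By segments of 10 Mb the value was highest in the first, with 70.0% of 100 pairs, and lowest between 90 and 100 Mb, with 36.8% of 19 pairs, but it did not fall steadily, with 11 of 22 pairs between 30 and 40 Mb, 61.1% of 95 between 40 and 50 Mb and 63.6% of 11 between 100 and 110 Mb.

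A peak of one group that met 2 peaks of the other was rare. It occurred for 12 tender peaks (1.59%, against 0.843% over the tender list) and for 8 tough peaks (1.16%, against 2.27% over the tough list). On the whole list split tough peaks were the more common kind, and on chromosome 7 the order of these small numbers was the other way round. The highest-scoring split tender peak, from 4531801 to 4538600 with a score of 283.9, met tough peaks with a summed score of 154.9. The highest-scoring split tough peak, from 44787001 to 44792400 with a score of 211.9, met tender peaks with a summed score of 206.2.

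Scores on chromosome 7 were slightly above those elsewhere, with a median of 65.5 (quartiles 37.2 and 113.2) in the tender group against 59.7 on the other autosomes, and 60.6 (38.1 and 96.3) in the tough group against 58.0. The highest-scoring region of the chromosome in both libraries lay from 89222601 to 89226000, in the sparse part. It scored 587.5 for tender and 841.6 for tough, 1.81 and 2.78 times the next score on the chromosome, and was the sixth highest of the whole tender list and the third highest of the whole tough list. It was dense in score, with 53.4 score units per window in the tender peak of 2200 bp and 49.5 in the tough peak of 3400 bp. The median peak of the chromosome had 6.81 and 5.21. Both peaks were wider than the chromosome medians of 2000 bp (tender) and 2400 bp (tough).

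The other leading regions were broader and lay in the crowded blocks. A region from 62228001 to 62233200 scored 325.2 in tender and 300.3 in tough, and one from 41748201 to 41752400 scored 324.0 and 301.2. The region from 6307001 to 6315600 scored 313.6 in a tender peak of 4600 bp and 273.7 in a tough peak of 8600 bp. A region from 13542601 to 13550000 was second in the tough library, with 302.9 against 279.0 in tender. The most uneven of the leading regions, from 54667601 to 54672400, scored 311.0 in tender and 146.8 in tough, with peaks of 4800 and 2800 bp. The same reads score lower in the tough library. The tender score was the higher in 394 of the 591 pairs (66.7%), against 63.4% on the other autosomes. Over the 591 pairs the scores of both libraries ran in parallel, with a Spearman's rho of 0.763, which is a description across peaks of 2 libraries that share width and background, and the other autosomes ranged from 0.658 to 0.843.

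In reads the balance of the paired peaks of the chromosome was near that of the other autosomes. The 527 pairs in which both peaks could be counted held 14641 reads in tender and 14088 in tough peaks, and the tender percentage, 51.0%, was near the 50.6% of the other autosomes. Reads were then scaled by the reads in all counted pairs of the lists, which sets the totals of these pairs equal. The median ratio of tender to tough reads was then 1.01 (quartiles 0.825 and 1.25), against 0.974 on the other autosomes. A 2-fold or larger excess occurred in 8 pairs toward tender (1.52%, against 2.04% over all counted pairs) and in 12 toward tough (2.28%, against 2.31%). Both percentages are near the genome-wide ones. Scaling by the depth of the libraries in place of the reads in pairs changed the numbers to 35 toward tender and 8 toward tough. The direction of the balance thus rests on the scaling. This change of scale moves every pair of the lists toward tender. Percentages over all counted pairs were not computed under it, so the 35 and 8 are no trait of chromosome 7. The 64 pairs with a peak above the score limit, among them the leading regions, are not part of these counts.

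The largest tender excess was the region from 4094801 to 4104200, with 59 reads in tender and 13 in tough, a ratio of 4.42 (95% exact interval 2.40 to 8.79 for counting error). A pair from 54716801 to 54718400 had 36 and 12 reads, a ratio of 2.92 (1.49 to 6.17), in peaks of almost equal width. The third, from 21665001 to 21670600, had 36 and 15 reads, a ratio of 2.34 (1.25 to 4.60). Toward tough, a pair from 56588201 to 56589600 had 15 reads in tender and 44 in tough, a ratio of 3.01 (1.64 to 5.82), again in peaks of similar width. It was followed by a pair from 43999201 to 44001000 with 11 and 30 reads (2.80, 1.36 to 6.19) and one from 67980801 to 67984800 with 10 and 27 reads (2.77, 1.30 to 6.42). As the extremes of 527 pairs, these intervals do not allow for the choice of pairs, and they do not cover the spread between steers.

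**Figure D5:**
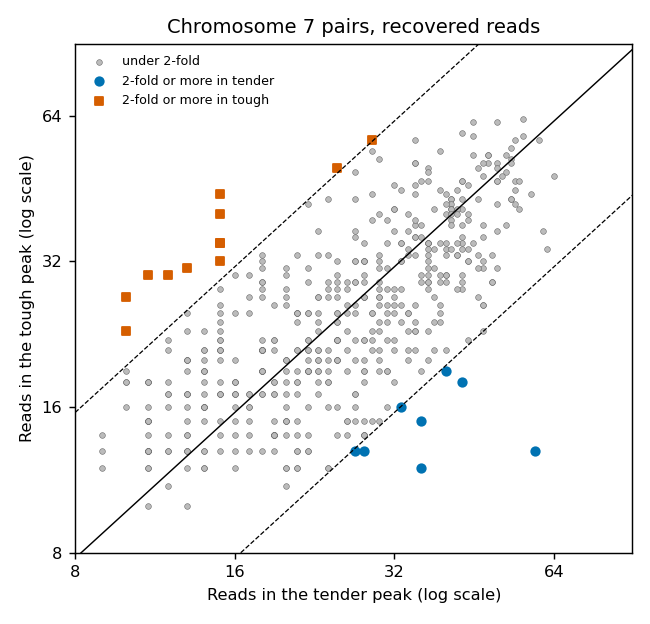
Each point is a pair of overlapping peaks of chromosome 7, with the reads of the tender peak on the horizontal and of the tough peak on the vertical axis, both on log scales. The solid line marks equal scaled reads and the dashed lines a 2-fold difference, beyond which lie 8 pairs toward tender (blue) and 12 toward tough (orange).

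The authors deposited a second pair of peak lists for the same libraries, with peak names, in which the X chromosome ends at 87.9 Mb and not at 148.8 Mb as in the lists used above. The methods name bosTau4 alone, so the positions and peak numbers given so far, from lists that state no build, are not to be read as bosTau4 ones. These lists therefore place the reads on another assembly and give a view of how far the map depends on it. In them chromosome 7 had 756 tender and 697 tough peaks and 821 merged regions up to 111.8 Mb. Its density was 7.35 regions per Mb, again the fifth of 29, and 80.3% of the regions lay before the midpoint, again the highest. The fullest bin held 44 regions, the longest gap was 5.82 Mb, and 103 regions lay beyond 65 Mb. The unmatched percentage was 17.5% of tender and 12.2% of tough peaks, the second lowest of the autosomes in each group. The top peak differed between the lists. Here it lay from 97523401 to 97524800 in tender with a score of 398.4 and from 97523201 to 97524200 in tough with 430.7, and no peak of chromosome 7 reached the scores of 587.5 and 841.6 seen in the first lists. Positions were not carried over between the assemblies, so whether the same reads lie behind both top peaks was not analysed here. As both pairs of lists come from the same reads, they are no independent repeat.

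No gene annotation of the assembly behind the lists was used here, so peaks were not assigned to genes, and whether a peak lies at the start of CAST was not analysed here. The RefSeq annotation of another assembly, ARS-UCD2.0, gives the order of genes only. The genes named below, listed for their known biology, are all on chromosome 7 there. From the centromere side the order begins with JUND and KLF2, transcription factors, followed by TPM4, a tropomyosin, PRKACA, a catalytic subunit of protein kinase A, NFIX, CALR, JUNB and INSR, the insulin receptor. Then come FBN2 and LOX, which build and cross-link the extracellular matrix, HSPA4, TGFBI, SMAD5, MYOT, a protein of the muscle Z-disc, EGR1, FGF1, NR3C1, the glucocorticoid receptor, CAMK2A, GPX3, ANXA6 and SPARC. RASA1 and MEF2C, a muscle transcription factor, follow, and PCSK1, CAST and ERAP1 come last of the listed genes. CAST has PCSK1, a proprotein convertase, and ERAP1, a peptidase that trims antigens, as its neighbours among protein-coding genes. CAST is thus placed toward the far end of the list, but no peak of these lists can be tied to it by order alone.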

How the data were processed

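H3K4me3 ChIP-Seq peak lists of 1 pooled tender and 1 pooled tough LD library were used, grouped by the sample titles. By the methods the authors aligned reads with Maq to bosTau4, allowed a single mismatch, removed redundant and multiply aligned reads and called peaks with SICER (version 1.1 in the submitters' processing notes) in 200 bp windows with gaps of up to 400 bp and an E-value of 100. The deposited score of a peak is the SICER score. The main lists state no build and differ in chromosome ends from the second lists. The second lists hold 12452 tender and 11395 tough peaks, the totals that the authors report, and the main lists do not match these totals. Positions and counts given here from the main lists therefore cannot be taken as those of the bosTau4 alignment described. Positions are counted from 1.

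Peaks with an overlap of at least 1 bp were shared. Reads per peak followed from the scores within 1.5e-09, up to a score of 180. Chromosomes ended at their last peak. With 1 library per group, values, ranks and intervals at 95% are given without tests. The members and lists were chosen with earlier results of these data known. Named regions are the 5 highest-scoring in each library, the 5 widest, the 5 highest-scoring unmatched peaks of each group, the 3 most unequal pairs in width and in reads in each direction, the 5 fullest bins, the 5 longest gaps and the 3 longest runs. Isolated regions, blocks, split peaks and score classes were added after seeing the data. Calculations used scipy 1.17.1, pandas 2.3.3 and numpy 2.4.6 under Python 3.11.15, and were tested on simulated data. Some listed genes are not reported here. Gene assignment and sequences were left out because no genome of the build was used here. The alternatives tried are listed with their effect in the closing section.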

Additional observations from a re-analysis of the deposited data

How the results depend on the processing

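Of 59 recomputed values, 34 stayed near the value reported (a count within 1.5 times, a percentage or median within its 95% binomial interval) and 25 moved. The balance of pairs with 2-fold more reads turned, from 8 tender and 12 tough to 35 and 8, when reads were scaled by library depth. That scaling moves every pair of the lists toward tender, so the turn is no trait of chromosome 7. Which of the 2 scales suits the libraries was not tested. A score minimum set at 2 times the lowest score gave a fold of 1.42 for the share of regions over length, 12 runs of 3 or more regions, a median tough width of 2800 bp, median scores of 93.8 (tender) and 87.9 (tough), unmatched percentages of 3.45% and 0.485%, and 38 and 6 pairs with the tough or tender peak 2-fold wider. With the same number of highest-scoring peaks the tender median score was 72.6 and 13.4% of tender and 12.5% of tough peaks were unmatched. One-to-one pairs alone had median scores of 79.0 and 66.4. An overlap of 50% of both peaks left 35.1% and 28.9% unmatched. The 10% of bins with the most regions held 24.6% of regions with bins of 5 Mb and 44.4% with bins of 0.5 Mb, and a spacing of up to 20 kb gave 80 runs. A fold of 1.5 gave 167 and 50 pairs in width (tough, tender) and 62 in each direction in reads. Under all these settings, unmatched percentages and numbers of unequal pairs were computed for chromosome 7 alone, without a genome-wide value beside them. The second lists, added after seeing the data, gave 12.2% of tough peaks unmatched. Chromosome lengths of a reference assembly were not run, since none of the build was used. No paired analysis was possible because each group is 1 library. Depth limits single peaks, whose median is 22 or 23 reads, to large differences.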
